A study of Rattus norvegicus with 4 samples.

Results

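The transcripts described here are those of 10 genes that control entry into the cell division cycle, or are named for a link to it, in rat granulosa cells. They are the D-type cyclins Ccnd1, Ccnd2 and Ccnd3, the E-type cyclins Ccne1 and Ccne2, the kinase inhibitors Cdkn1b, Cdkn1c and Cdkn2c, the transcription factor E2f1 and Rgcc. Every probe set that the probe table pairs with exactly 1 of these symbols was taken, which gave 15 of the 20826 probe sets with 1 symbol, for 10 of 14217 genes. A filter on dim probe sets, at a mean signal of 78.6, left 10 of the 15 for testing, and these cover 8 of the genes. All 3 probe sets of Ccnd1, the single one of E2f1 and 1 of the 2 of Cdkn2c lay below it.

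The cells were granulosa cells of immature female Sprague Dawley rats, 27 days old, whose ovaries had been primed for 48 h with PMSG, a gonadotropin that drives follicle growth. All cultures received 10 µM forskolin for 48 h, which activates adenylyl cyclase and raises cAMP, so no group shows the cells without the agonist. Of the 4 cultures, 2 carried 20 nM siRNA against Runx2, a transcription factor of the Runt family, and 2 carried 20 nM of a negative control siRNA. Each culture gave 1 array, and whether a culture pooled several animals is not stated. Gene levels are MAS5 signals, a linear array intensity that can be set against itself between arrays but not against the signal of another probe set. Since these are bulk RNA samples, fewer cells of a kind and less RNA per cell cannot be told apart.

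A cell commits to division in the G1 phase. D-type cyclins bind the kinases Cdk4 and Cdk6, and E-type cyclins bind Cdk2, and both kinase complexes phosphorylate the retinoblastoma protein, which then releases E2F factors that turn on the genes of DNA synthesis. Cdkn1b (p27) and Cdkn1c (p57) bind and hold back cyclin-Cdk complexes, and Cdkn2c (p18) binds Cdk4 and Cdk6 themselves. In granulosa cells Ccnd2 is the D-type cyclin induced by follicle-stimulating hormone, and Cdkn1b accumulates when the cells leave the cycle and turn into luteal cells. Rgcc, also called Rgc32, was named as a response gene to complement and encodes a protein reported to bind Cdk1.

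The Rgcc promoter is shown because Rgcc had the largest difference of the set. Beside it stand the promoter of Ccnd3, which differed least among those tested, and that of Cdkn1b, whose signals were also lower with Runx2 siRNA. The RefSeq promoter table (GRCr8, 250 bases before to 50 after each start) held 5 of the 10 genes, namely these and Ccne1 and Cdkn2c. Capitals mark the Runx motif variant TGCGGT and TGACG, the short form of the cAMP response element, read as CGTCA on the other strand.
Rgcc, chr15:61084559-61084658, minus strand, bases -250 to -151: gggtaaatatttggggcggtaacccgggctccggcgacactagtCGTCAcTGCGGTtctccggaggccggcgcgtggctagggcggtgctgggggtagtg
Ccnd3, chr9:20897876-20897975, minus strand, bases -100 to -1: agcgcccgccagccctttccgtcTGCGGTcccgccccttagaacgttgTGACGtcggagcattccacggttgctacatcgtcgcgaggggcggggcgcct
Cdkn1b, chr4:169491362-169491461, plus strand, bases -142 to -43: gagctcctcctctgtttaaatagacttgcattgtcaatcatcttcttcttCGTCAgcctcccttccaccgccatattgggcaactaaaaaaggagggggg

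Searched on both strands of the whole 300 bases, TGCGGT was found at base -200 of Rgcc, at base 17 after its start on the other strand, and at base -77 of Ccnd3. It occurs in 6.39% of all 33469 promoters in the table. The more common Runx motif TGTGGT, held by 17.3% of promoters, was in none of the 5. TGACG, which 21.2% of promoters hold, was at base -206 of Rgcc, -92 of Cdkn1b and -52 of Ccnd3. The full element TGACGTCA (1.83% of promoters), which contains TGACG on both strands, and the E2F motifs TTTGGCGC (0.493%) and TTTCCCGC (0.974%) were in none of the 5. Rgcc and Ccnd3 thus both held TGCGGT and TGACG, and whether either motif has a part in any difference was not tested. These matches describe letters only, and no measurement of binding was used here.

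The arrays had been scaled to one trimmed mean, and pairs of arrays correlated across probe sets at r = 0.949 to 0.980. On the second Runx2 siRNA array, 9 bacterial and phage spike-in probe sets had a geometric mean 1.73 times the control mean, where the first Runx2 siRNA array had 0.970, and the actin 3' to 5' ratio was 1.71 against 1.42 to 1.45 elsewhere. Of the granulosa markers with a probe set, 12 of 13 passed the filter, whereas Amh did not (30.9 to 68.0). Markers of theca and stroma passed in 7 of 9 genes, with summed signals of 2025 and 2770 with Runx2 siRNA and 1632 and 2682 with control siRNA, and the theca enzyme Cyp17a1 lay below the filter (47.2 and 91.7 with Runx2 siRNA, at most 22.7 with control siRNA). Leukocyte markers passed in 4 of 9 genes (sums 1121 and 1698 against 866 and 1439) with Ptprc at 2.32 to 37.4, oocyte markers in 1 of 5 (584 and 893 against 398 and 628) and endothelial markers in 1 of 7 (401 and 400 against 326 and 461). The sums weigh bright probe sets most, such as Zp2 among the oocyte markers (486 and 571 with Runx2 siRNA). They set arrays side by side and give no amount of a cell type. The part of these cell types in the results below was not tested. The probe table pairs 0 probe sets with Runx2, so the degree of knockdown was not analysed here.

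By the series description the siRNA was meant to lower Runx2 raised by the agonist, and the comparison asked which transcripts then differ. Among tested probe sets, those of Rgcc and the inhibitor Cdkn1b were lower with Runx2 siRNA. Those of the E-type cyclins, Ccnd2 and the inhibitor Cdkn2c were higher. Of these higher ones, only Ccnd2 stayed without overlap after the cyclic loess rescaling described below. Ccnd3 and Cdkn1c overlapped between the groups. None of these differences passed the test over all probe sets. By limma with Benjamini-Hochberg adjustment over 18625 probe sets, 0 of 10 member probe sets had an adjusted p under 0.05 (adjusted p from 0.353 to 0.842), against 0% of all those tested. Only Rgcc had an unadjusted p under 0.05, 1 of 10, where 11.9% of all tested probe sets did and 5.49% did with a lower signal under Runx2 siRNA.

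The groups were separated, with no array of one inside the range of the other, in 8 of the 10 tested member probe sets. Of these 5 were higher and 3 lower when Runx2 was targeted. For 3 of the 8 (Rgcc, Ccne1 and the dimmer Ccne2 probe set) the group with the lower signal had a mean below 78.6, so they passed the filter only through the group where they were high, and the count is no support for a change. Of the 7 with both group means above the limit, 3 were higher and 2 lower without overlap. Over all tested probe sets the share was 47.4%, made up of 28.8% higher and 18.5% lower. A separated probe set necessarily differs the same way in both array numbers, and over all tested probe sets 41.6% were higher and 28.3% lower in both. With 2 arrays against 2, an exact permutation test cannot give a two-sided p below 0.333. The median log2 difference was 0.05 over the 10 member probe sets and 0.05 over all tested ones, and the members lay on both sides of it. Over the members it was 0.03 (0.06 over all) without the first Runx2 siRNA array and 0.11 (0.04 over all) without the second. Leaving out the first control array gave 0.08 (0.03 over all), and leaving out the second gave 0.14 (0.06 over all).

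**Figure D1:**
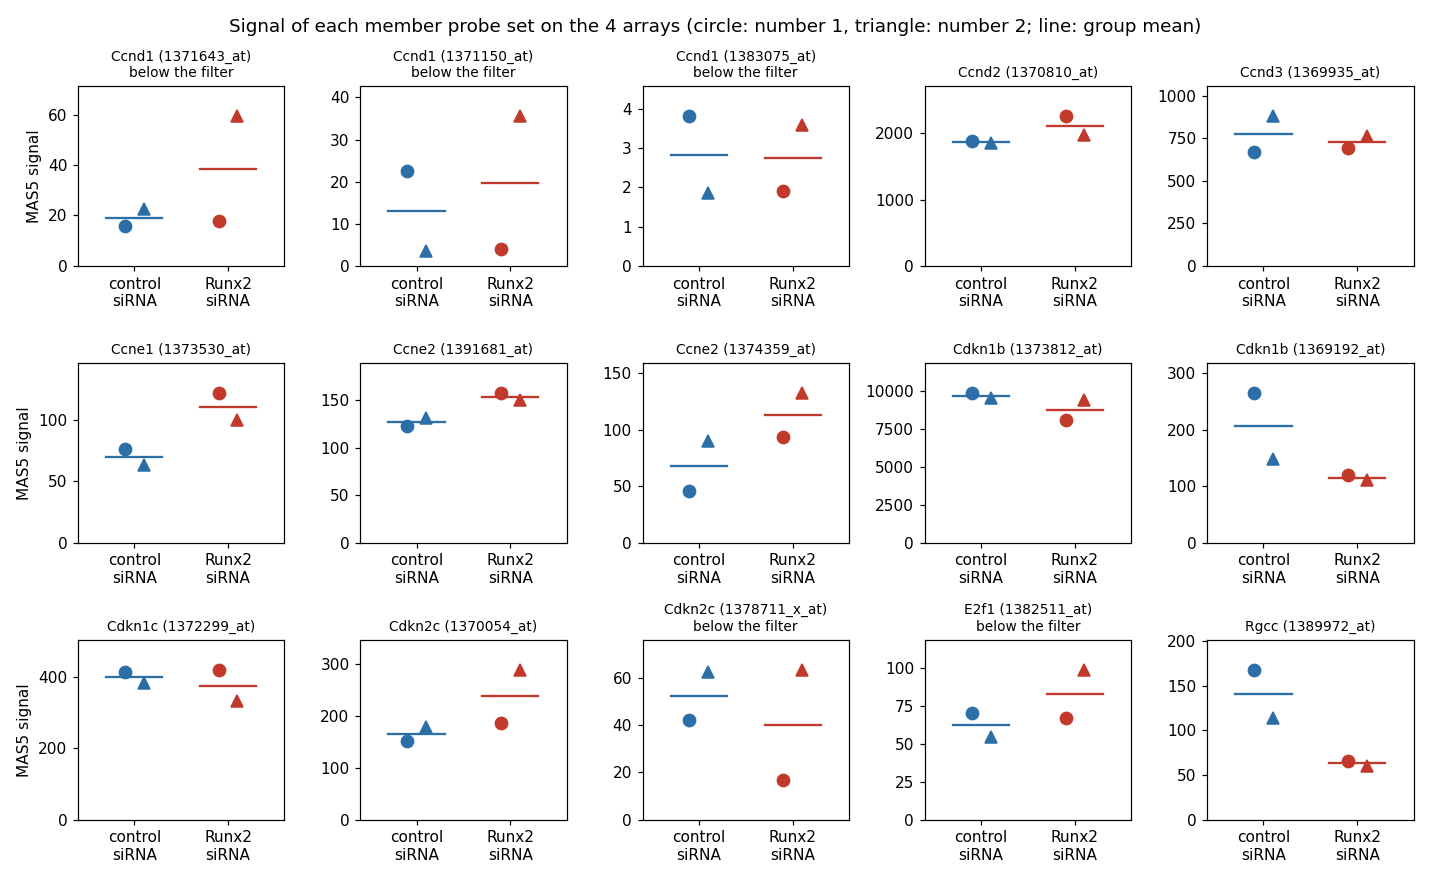
MAS5 signal (y axis, linear, from 0) of all 15 member probe sets by siRNA group; circles are the arrays numbered 1, triangles those numbered 2 and lines the group means. The Rgcc signals were 65.4 and 60.2 with Runx2 siRNA and 168 and 114 with control siRNA, and the 5 probe sets below the filter overlapped between the groups.

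Rgcc (probe set 1389972_at) gave signals of 65.4 and 60.2 with Runx2 siRNA and of 168 and 114 with control siRNA. Both Runx2 siRNA arrays were thus lower than both control arrays, and they lay closer to each other than the controls did. The means were 62.8 ± 3.63 and 141 ± 38.1 (SD, n = 2 each), a ratio of 0.446, and the mean with Runx2 siRNA was below the filter limit of 78.6. On the scale of log2(signal + 16), which understates differences of dim probe sets, the difference was -0.97 ± 0.26 (SE, 95% interval -1.62 to -0.32, unadjusted p = 0.0117, adjusted p = 0.353 by limma). In number 1 it was -1.17 and in number 2 it was -0.77. Of all tested probe sets, 1.03% had a difference as low or lower. Rgcc passed the filter only through the control arrays, where it was high, and was chosen with earlier results known. Its rank is thus no support for a change. The control arrays differed from each other by -0.50 (number 2 minus 1) and the Runx2 siRNA arrays by -0.09.

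A second, brighter probe set (1368080_at) is paired with both Rgcc and a gene of similar name, Rgccl1, and so was assigned to neither and is not among the 15. Its signals were 994 and 352 with Runx2 siRNA and 3161 and 1627 with control siRNA, and the groups did not overlap. The difference was -1.91 ± 0.54 (SE, adjusted p = 0.357 by limma), with -1.65 in number 1 and -2.16 in number 2. Both probe sets were lower with Runx2 siRNA in each same-numbered comparison, which follows from groups that do not overlap. They were read on the same arrays, so one is not independent support for the other. The spread within a group was large here too, with the second array lower than the first by 0.95 in the controls and by 1.46 with Runx2 siRNA (log2).

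Cdkn1b, the p27 inhibitor of cyclin-Cdk complexes, was measured by a bright and a dim probe set that were both lower with Runx2 siRNA but by unequal amounts. The bright one (1373812_at) had signals of 8081 and 9357 with Runx2 siRNA and 9840 and 9501 with control siRNA, with the second Runx2 siRNA array just under the lower control. Its difference was -0.15 ± 0.12 (SE, 95% interval -0.46 to 0.16, adjusted p = 0.608 by limma), which is -0.28 in number 1 and -0.02 in number 2. The dim one (1369192_at) had signals of 119 and 111 against 265 and 147, where the first control array stood highest. Its difference was -0.71 ± 0.30 (95% interval -1.46 to 0.04, adjusted p = 0.429 by limma), with -1.06 in number 1 and -0.36 in number 2. The 2 control arrays of the dim probe set differed by -0.78, about as much as the groups did. Without the first control array its difference was -0.32, while without the second it was -1.10.

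Cdkn1c, the p57 inhibitor, overlapped between the groups, with signals of 419 and 331 with Runx2 siRNA and 414 and 382 with control siRNA. The difference was -0.09 ± 0.17 (SE), and its 95% interval reached from -0.51 to 0.33, so changes within that interval could not be told from none. Cdkn2c, the p18 inhibitor of Cdk4 and Cdk6, had signals of 186 and 289 with Runx2 siRNA and 152 and 179 with control siRNA, and both Runx2 siRNA arrays were above both controls. Its difference was 0.45 ± 0.25 (95% interval -0.18 to 1.09, adjusted p = 0.495 by limma). Leaving out the second array of Runx2 siRNA, which differed in spike-ins and actin ratio, gave 0.16. The other Cdkn2c probe set (1378711_x_at), below the filter at 16.6 and 63.3 against 42.0 and 62.2, pointed the other way at -0.40 and overlapped.

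Among the D-type cyclins, Ccnd2 had signals of 2259 and 1976 with Runx2 siRNA and 1888 and 1853 with control siRNA. The groups did not overlap, but they were close, at 2117 ± 200.1 against 1871 ± 24.4 (SD, n = 2 each). The difference was 0.17 ± 0.11 (SE, 95% interval -0.10 to 0.45, adjusted p = 0.526 by limma), and 31.8% of all tested probe sets had one as high or higher. It was 0.26 in number 1 and 0.09 in number 2, and 0.08 without the first Runx2 siRNA array. Ccnd3 had signals of 693 and 765 with Runx2 siRNA and 673 and 882 with control siRNA, so the controls enclosed both other arrays. Its difference was -0.08 ± 0.16 (95% interval -0.49 to 0.33), with 0.04 in number 1 and -0.20 in number 2.

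Ccnd1 was dim in each of its 3 probe sets. The brightest (1371643_at) had signals of 17.6 and 59.4 with Runx2 siRNA and 15.6 and 22.4 with control siRNA, where only the second Runx2 siRNA array stood out. The next (1371150_at) had 3.91 and 35.6 against 22.6 and 3.47, and the dimmest (1383075_at) 1.91 and 3.58 against 3.81 and 1.86. At these signals no order of the groups can be read, and no test was made for them with the filter in place.

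The E-type cyclins, which partner Cdk2 late in G1, had higher signals with Runx2 siRNA in all 3 of their probe sets. The control means of Ccne1 and of the dimmer Ccne2 probe set, 69.7 and 68.1, were below the filter limit of 78.6, so these passed it only through the Runx2 siRNA arrays. Ccne1 had signals of 122 and 99.8 with Runx2 siRNA and 76.1 and 63.4 with control siRNA, a mean of 111 ± 15.7 against 69.7 ± 8.98 (SD, n = 2 each). Its difference was 0.56 ± 0.23 (SE, 95% interval -0.03 to 1.15, adjusted p = 0.425 by limma), nearly equal in number 1 (0.58) and number 2 (0.54). For Ccne2, the brighter probe set (1391681_at) had 157 and 150 against 123 and 131, a difference of 0.24 ± 0.18 (95% interval -0.22 to 0.71, adjusted p = 0.585 by limma). The dimmer one (1374359_at) had 93.3 and 132 against 46.0 and 90.1, so the lower Runx2 siRNA array was barely above the higher control. Its difference was 0.65 ± 0.35 (adjusted p = 0.482 by limma), less than the 0.77 between its own control arrays. At 0.43 without the second Runx2 siRNA array and 0.26 without the first control array, this value depended on single arrays more than that of Ccne1, which ranged from 0.44 to 0.69 whichever array was left out.

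E2f1, the transcription factor that the retinoblastoma protein holds back, was below the filter. Its signals were 67.1 and 99.0 with Runx2 siRNA and 70.5 and 54.6 with control siRNA, and the groups overlapped. The difference, 0.32, came from the arrays numbered 2 (0.70), while those numbered 1 gave -0.06.

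**Figure D2:**
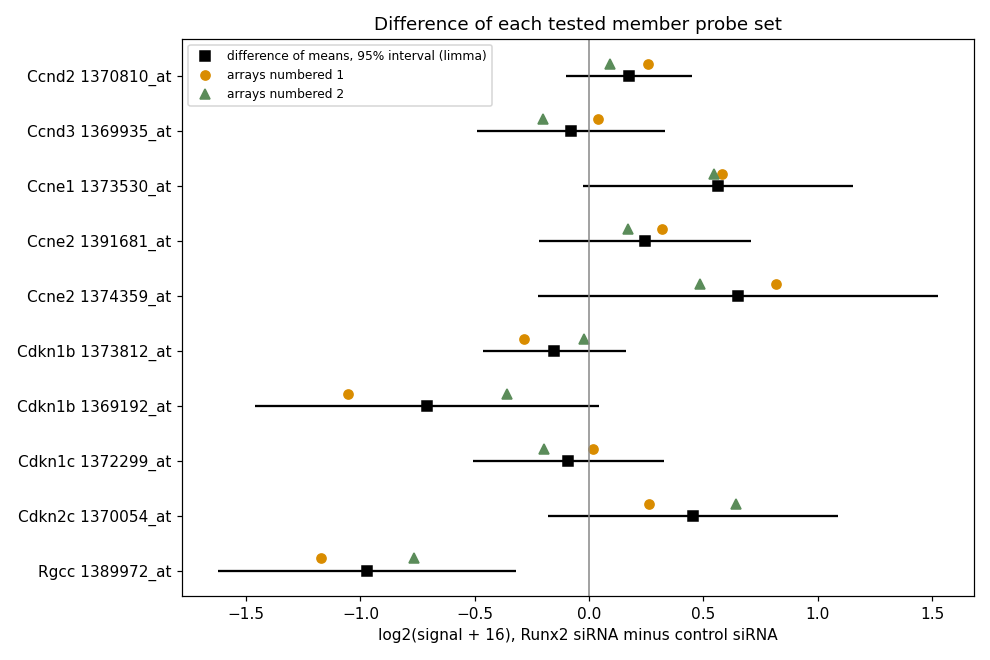
Difference in log2(signal + 16), Runx2 siRNA minus control siRNA (x axis), of the 10 tested member probe sets; squares with lines are the differences of means (n = 2 arrays each) with 95% limma intervals, circles and triangles the differences between arrays numbered 1 and 2. The interval of Rgcc, -1.62 to -0.32, leaves out 0, and the other 9 include it; for Ccnd3 and Cdkn1c the same-numbered arrays lie on opposite sides of 0.

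Rescaling the arrays moved the E-type cyclins toward 0 and Rgcc away from it. After cyclic loess normalization, which removes intensity-dependent differences between arrays, 4 member probe sets did not overlap in place of 8, where 46.5% of all tested ones did not. These were Ccnd2, higher, and both Cdkn1b probe sets and Rgcc, lower, so the split went from 5 higher and 3 lower to 1 and 3. Over all tested probe sets 60.9% of those not overlapping were higher with the authors' scaling and 50% after cyclic loess. The Ccne1 difference was then 0.33 ± 0.26 (SE), those of Ccne2 0.08 ± 0.18 and 0.41 ± 0.30, and that of Cdkn2c 0.33 ± 0.23. By contrast Rgcc lay at -1.19 ± 0.28 and the dim Cdkn1b probe set at -0.86 ± 0.32 after cyclic loess. Quantile normalization left 6 not overlapping, 3 higher and 3 lower (25.2% and 21.2% over all tested probe sets), with Ccne1 and the dimmer Ccne2 probe set overlapping. All 10 kept the sign of their difference under both, and 0 passed with either (adjusted p for Rgcc by limma was 0.345 after cyclic loess and 0.360 after quantile normalization).

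**Figure D3:**
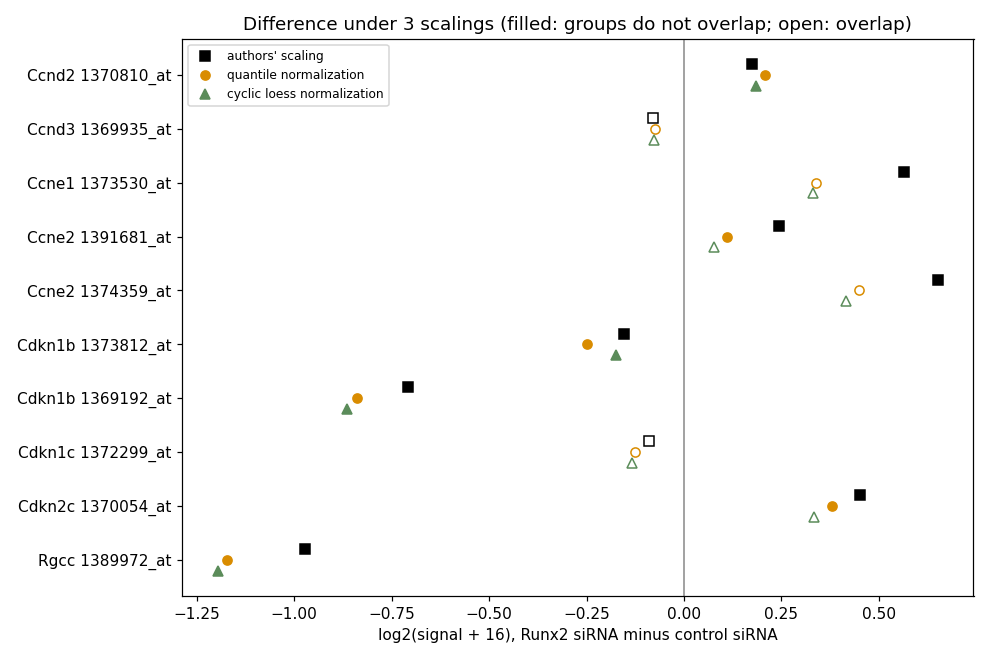
Difference in log2(signal + 16), Runx2 siRNA minus control siRNA (x axis), of the 10 tested member probe sets with the authors' scaling (squares), quantile (circles) and cyclic loess normalization (triangles); filled symbols mark groups that do not overlap. The E-type cyclins move toward 0, Ccne1 from 0.56 to 0.33 after cyclic loess, and Rgcc moves away from it, from -0.97 to -1.19.

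The patterns nearest to that of Rgcc over the 4 arrays, by Euclidean distance of centred log2 values, were those of Lrp5, a Wnt co-receptor (distance 0.05), Syn2, a synapsin (0.09), and Gk, glycerol kinase (0.17). Lrp5 had signals of 105 and 97.6 with Runx2 siRNA and 251 and 170 with control siRNA. Like Rgcc, it was lowest on both Runx2 siRNA arrays and highest on the first control array. Lrp5 was chosen for its small distance to Rgcc, so this likeness follows from the choice. The nearest to Ccnd2 were Atp6v0a2, a subunit of the proton pump of vesicles, Senp1, a SUMO protease, and Pard3, a cell polarity protein, at distances of 0.01 to 0.02. Ccnd2 itself varied by only 0.22 on this measure and Rgcc by 1.04, so a close match to Ccnd2 says little, and 4 arrays are few for either.

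Other genes of the pathway were read from 6 lists, each gene by its brightest probe set. In all, 60 genes were tested and 0 passed (limma, adjusted p over all probe sets), while 24 were higher and 10 lower with groups that did not overlap. Ccna2, Dtl, Mki67 and Top2a passed the filter only through the Runx2 siRNA arrays, where they were high. Dtl and Top2a are among the 24, so that count is no support for a change. The shares over all tested probe sets, 28.8% higher and 18.5% lower without overlap, are the background for the counts of each list below, which hold few genes. This background depends on signal, with 31.1% higher without the filter and 25.5% with the filter at 60%. For lists of mostly dim genes, such as the mitotic one, the higher share may thus be too low a background. List differences after rescaling are not given here. The kinases and activators of G1 had a median difference of 0.15 over 9 tested genes, against a median of 0.05 over all probe sets. Of the 9, 4 were higher without overlap and 0 lower (background 28.8% and 18.5%). Without the second Runx2 siRNA array the median of the list was 0.10. Both list medians include Ccna2, which passed the filter only through the Runx2 siRNA arrays. Ccna2, the S phase cyclin, had the largest value of this list at 1.03 ± 0.56 (SE), with overlap. Cdc25a, the phosphatase that activates Cdk2, followed at 0.48 ± 0.14. Ccnh, the cyclin of the Cdk-activating kinase, lay at 0.25 ± 0.10 and Cdc37, a chaperone cofactor of kinases, at 0.17 ± 0.11. Ccna2 had signals of 69.5 and 251 against 47.4 and 70.8, so only the second Runx2 siRNA array stood above both controls. A second, dim probe set of Cdc25a lay at -0.09.

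The other kinase inhibitors did not share one direction. Their median was 0.33 over 4 tested genes, 2 higher and 1 lower without overlap (background 28.8% and 18.5%), and 0.18 without the second Runx2 siRNA array. Cdkn2b (p15), which like Cdkn2c binds Cdk4 and Cdk6, had signals of 272 and 177 with Runx2 siRNA and 472 and 311 with control siRNA. It differed by -0.76 ± 0.29 (SE), and by -0.76 in each same-numbered comparison, although the second array was the lower one in both groups. Cdkn1a (p21), an inhibitor of Cdk2 and a target of p53, had 2850 and 3484 against 2363 and 1860. It was higher on both Runx2 siRNA arrays, with a difference of 0.58 ± 0.17, and its second probe set lay at 0.42 ± 0.12. Cdkn2d (p19) lay at 0.31 ± 0.14 (its second probe set lay at -0.01 ± 0.19), and Cdkn3, a phosphatase of Cdk2, at 0.35 ± 0.32 with overlap. Their adjusted p by limma ran from 0.355 (Cdkn1a) to 0.653 (Cdkn3).

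Retinoblastoma and E2F family genes had a median of 0.20 over 13 tested genes, 5 higher and 4 lower without overlap (background 28.8% and 18.5%). The largest were Tfdp2, a partner of E2F proteins, at 0.53 ± 0.28 (SE), Rbl1 (p107) at 0.49 ± 0.24, Rbl2 (p130) at -0.44 ± 0.22 and the repressor E2f6 at 0.29 ± 0.11. Rbl1, the relative found in cycling cells, and Rbl2, the one found in resting cells, thus had opposite signs, though neither passed (adjusted p = 0.457 and 0.474 by limma). The 2 other tested probe sets of Tfdp2 lay at 0.06 and 0.00. Without the second Runx2 siRNA array the median of the list was 0.08.

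Genes that mark G1 cyclins and p27 for breakdown had a median of 0.00 over 11 tested genes, 3 higher and 3 lower without overlap, which is near the background. Without the second Runx2 siRNA array the median was -0.09. Fbxw7, the F-box protein that targets cyclin E, lay at -0.41 ± 0.20 (SE), with its second probe set at -0.35 ± 0.22. Fbxo4, an F-box protein described for cyclin D1, had signals of 574 and 513 against 868 and 764 and lay at -0.57 ± 0.13 (unadjusted p = 0.00616, adjusted p = 0.346 by limma). Cul4a, a cullin scaffold, lay at -0.33 ± 0.17, and Dtl, its substrate adaptor in S phase, at 0.68 ± 0.36. Dtl, among the 3 higher, passed the filter only through the Runx2 siRNA arrays, with a control mean of 58.8.

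E2F targets of S phase entry had a median of 0.25 over 14 tested genes, 3 higher and 2 lower without overlap, no more than the background of 28.8% and 18.5%. The median was 0.02 when the second Runx2 siRNA array was left out. Both medians include Ccna2, which passed the filter only through the Runx2 siRNA arrays. Tyms, thymidylate synthase, had signals of 288 and 328 against 158 and 202 and lay at 0.73 ± 0.19 (SE). In the opposite direction, Cdc45, a part of the replicative helicase, had 294 and 340 against 544 and 516 and lay at -0.72 ± 0.14, and 2 further probe sets above the filter gave -0.89 and -1.01. A dim Cdc45 probe set lay at 0.27. Tk1, thymidine kinase, lay at -0.40 ± 0.21, with other probe sets at -0.69 and -0.35. None of the 3 passed over all probe sets (adjusted p from 0.326 to 0.483 by limma).

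Mitotic genes had the highest median of the 6 lists, 0.71 over 10 tested genes, 7 higher and 0 lower without overlap (background 28.8% and 18.5%). Top2a, among the 7, and Mki67, which overlapped but enters the median, passed the filter only through the Runx2 siRNA arrays. Their control means, 77.2 and 75.9, were below the filter limit, so the count and the median are no support for a change. Without the second Runx2 siRNA array the median was 0.43. Plk1, Cdc20, Top2a and Ccnb1, which act in mitosis, lay at 0.97 ± 0.32, 0.95 ± 0.25, 0.89 ± 0.45 and 0.79 ± 0.33 (SE, adjusted p from 0.353 to 0.472 by limma). Top2a shows how far the arrays spread, with 134 and 146 against 37.5 and 117. Ccnb1 had a second probe set at 0.39 and Cdc20 a second tested one at 0.27. All 6 lists were read from the same 4 arrays, and Ccna2 is in 2 of them, so their counts are not independent of each other.

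**Figure D4:**
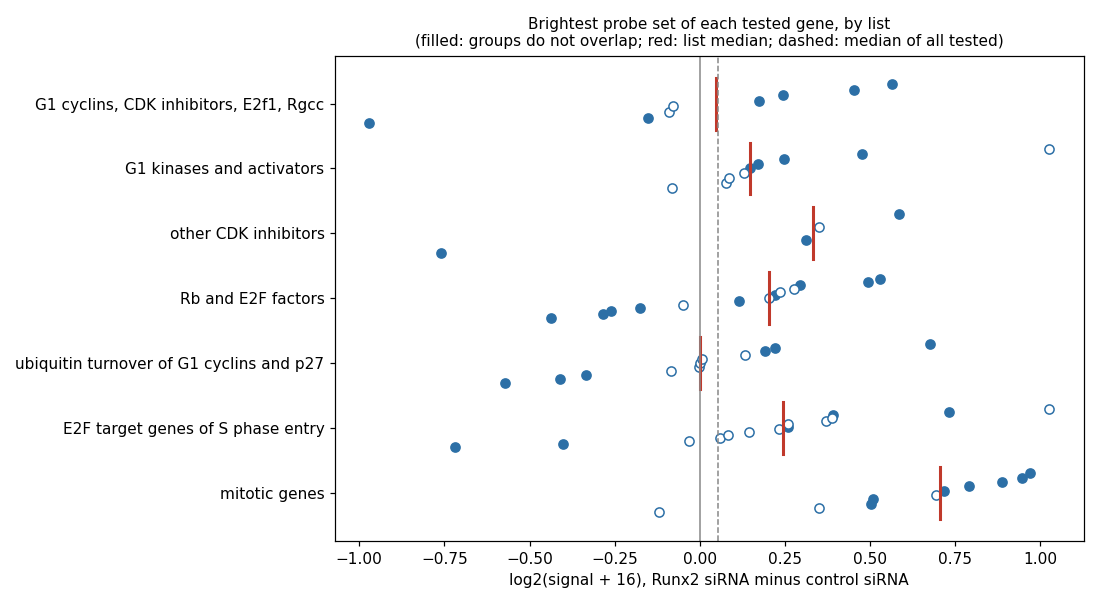
Difference in log2(signal + 16), Runx2 siRNA minus control siRNA (x axis), of the brightest probe set of each tested gene in the G1 set and 6 further lists; filled points mark groups that do not overlap, red bars list medians and the dashed line the median of all tested probe sets. The mitotic list has the highest median, 0.71, and the G1 set lies around the overall median of 0.05 with Rgcc apart at -0.97. The mitotic median includes Top2a and Mki67, which passed the filter only through the Runx2 siRNA arrays.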

How the data were processed

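Total RNA of 4 cultures, 2 per siRNA group, was labelled with biotin and measured on 1 array each, per the labels' protocols. The authors deposited array intensity as MAS5 signal on a linear scale, per the submitters' processing notes, which give no version here, and from the values the authors' scaling set each array's mean, trimmed by 2% at each end, to 500. Such scaling hides a change in total RNA, and no detection calls were used here. The 31099 probe sets included 57 controls, which were left out. The platform annotation pairs 20826 of the others with 1 symbol, 436 with several and 9780 with none, and 20758 of the first matched a current RefSeq gene by identifier, with 0 symbols changed. Sample columns not used numbered 0.

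Log2(signal + 16) was tested with limma 3.58.1 in R 4.3.3 (lmFit, eBayes with trend, two-sided), Runx2 siRNA minus control siRNA, no term for replicate number, after leaving out the lowest 40% by mean signal. This tested 18625 probe sets, with Benjamini-Hochberg adjustment over all of them and a threshold of 0.05. Group and number come from sample titles. The series text speaks of separate cultures, without saying whether one culture served both siRNA groups. Deviations of same-numbered arrays correlated at 0.548, but no label says that a number marks a shared culture. The script was tested on simulated data. The number of arrays limits the precision. Members and lists were chosen with earlier results of these data known. All member probe sets were named, with the 4 largest differences of each list and the 3 patterns nearest to Rgcc and Ccnd2. The promoter sequences were taken to read in the gene's direction. The letters TATAAA, searched only in bases shortly before the start, peaked at base -30 on both strands. At that base they began in 40 of 16845 plus-strand and 31 of 16624 minus-strand promoters.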

Additional observations from a re-analysis of the deposited data

How the results depend on the processing

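The counts of member probe sets, pathway genes and all probe sets past the threshold were 0 after cyclic loess or quantile normalization, with constants of 1 and 64, without the filter, with the filter at 60%, without an intensity trend, and whichever array was left out (lowest and highest 0). Without the filter, the 5 dim member probe sets were tested and 0 of 15 passed. A replicate block, which fits the array number, changed this, and 1512 probe sets passed, 610 higher and 902 lower, or 8.12%. Among them was 1 member, Rgcc (-0.97 ± 0.22, SE, adjusted p = 0.0340 by limma), and 8 pathway genes, of which Cdkn1a, Tyms, Ccnb1, Ccnb2 and Cdc20 were higher and Cdkn2b, Fbxo4 and Cdc45 lower. No label says that cultures of one number were paired. Without that term, the adjusted p of Rgcc ran from 0.218 to 1.00 over the alternatives. Member probe sets without overlap numbered 8 of 10, but 4 after cyclic loess (46.5% of all probe sets) and 2 of the 4 left by the filter at 60% (47.6%). They numbered 9 whichever array was left out, but then 1 array stands against 2 and 65.3% to 82.3% of all probe sets do not overlap. Leaving out single arrays gave -0.27 to 0.11 for Ccnd3, positive without the second control array, and -0.25 to 0.073 for Cdkn1c, positive without the second Runx2 siRNA array. With constants of 1 and 64 Rgcc lay at -1.13 and -0.68.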
